A study of Macaca mulatta with 34 samples.

Results

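The small RNA content of macaque cerebellum that received no vector was described from the 3 vehicle small RNA libraries of Study 1, which are 3 of the 34 libraries and 3 of the 12 small RNA libraries in the series. They were taken by their labels, and no measured value entered the choice. The series examined toxicity after adeno-associated virus (AAV) vectors carrying RNA interference constructs were given to rhesus macaques (Macaca mulatta), and Study 1 asked what caused the toxicity of a vector named AAV.miS1. The vehicle animals received no vector by their label, but vehicle was injected into the deep cerebellar nuclei, the output nuclei of the cerebellum, under magnetic resonance guidance. The tissue label is cerebellum and the source label is Intermediate Deep. Age, sex, genotype, the time from injection to sampling and the animal behind each small RNA library were not used here, and nothing in the labels says that the 3 libraries came from separate animals. All spreads below are therefore spreads between libraries, which may be technical, and no comparison with dosed libraries was made.

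MicroRNAs are short RNAs cut from hairpin precursors, and they guide Argonaute proteins to messenger RNAs with partly complementary sites, which lowers the output of those messengers. Small nucleolar RNAs (snoRNAs) mostly guide chemical modification of ribosomal and spliceosomal RNA: C/D box members direct ribose methylation and H/ACA box members direct pseudouridylation. The SNORD115 and SNORD116 snoRNAs are tandem arrays of an imprinted region, expressed from the paternal chromosome mainly in neurons. Copies of a microRNA whose names differ only in a final number give the same mature sequence from different places in the genome.

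Replicates 1, 2 and 3 held 7421542, 10629988 and 8409548 counts in genes, and 15871, 17490 and 17863 genes with at least 1 count. Levels are given as reads per 1000000 counts in genes (RPM). A count of 0 allows up to 0.404, 0.282 and 0.357 RPM, a limit of 3 counts that covers counting error only. This limit and the chi-square below take counts as independent, which was not tested. RPM was not divided by gene length. RefSeq lengths were found for 22 of the 25 most abundant microRNA genes, and among all matched microRNA genes 19 of the top 20 by RPM were also in the top 20 by RPM per length. No pair of libraries was near counting noise: chi-square per degree of freedom over genes was 201 for replicates 1 and 2, 127 for replicates 1 and 3, and 75.7 for replicates 2 and 3.

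MicroRNA genes were the largest named class, with 30.9%, 26.0% and 29.3% of the counts in replicates 1, 2 and 3 (28.7% ± 2.45, SD, n = 3). The snoRNA genes held 9.60%, 11.9% and 13.2% (11.6% ± 1.82, n = 3). Other small RNA classes together held 7.81%, 8.92% and 10.3% (9.02% ± 1.26, n = 3). MicroRNA counts thus exceeded snoRNA counts in each of the 3 libraries, by more than the spread between libraries. As shares of all counts, the snoRNA and other small RNA classes were lowest in replicate 1. In that library mml-mir-9-2 and 2 genes without a symbol that follow it in count took a larger part. This lowers every other share there, so the order of the libraries may not hold outside those 3 genes. Named genes of any other kind held 3.39%, 3.50% and 4.82% (3.90% ± 0.797, n = 3). The remaining 48.3%, 49.6% and 42.4% (46.8% ± 3.86, n = 3) fell in 10838 genes to which the tables give no symbol, so their class is not known here.

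Few microRNA genes carried the pool. Of 540 microRNA genes, 351 had a count in at least 1 library, 199 had at least 10 counts in each library, and 189 were at 0 in all 3. By mean RPM, 3 genes held 50% of the microRNA counts, 13 held 90% and 78 held 99%. A mean of at least 1000 RPM was reached by 16 genes, and of at least 100 RPM by 61. The order was shared between libraries: 22 of the 25 most abundant microRNA genes were in the top 25 of each library, and all 25 were in the top 30 of each.

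The most abundant microRNA gene was mml-mir-9-2, a hairpin of miR-9, which is known for its part in neural progenitors and neuronal differentiation. It measured 145821, 82699 and 82480 RPM (103667 ± 36507, n = 3), and its counts were 1082213, 879091 and 693621. It made up 47.3%, 31.7% and 28.2% of the microRNA counts (35.7% ± 10.1). Replicate 1 stood above replicates 2 and 3, which lay close together. The other microRNA genes held 16.3%, 17.8% and 21.1% of all counts (18.4% ± 2.44), lowest in replicate 1. That total still includes mml-mir-9-2 and 2 genes without a symbol that follow it in count. ENSMMUG00000064551 had 145822, 82702 and 82482 RPM, and ENSMMUG00000027037 had 97.2%, 95.3% and 95.6% of the mml-mir-9-2 counts. Their larger part in replicate 1 lowers every other share there, so which genes set the order of the libraries is not settled.

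Next came mml-mir-30d, with 26092, 32995 and 36401 RPM (31829 ± 5252, n = 3). The mml-mir-125a gene, whose family is known for roles in neuronal and immune differentiation, measured 23147, 27512 and 36128 RPM (28929 ± 6606). The mml-mir-30c-1 gene measured 25441, 25896 and 34776 RPM (28704 ± 5263). These 3 neighbours in the order did not differ by more than their spread. In RPM all 3 were lowest in replicate 1 and highest in replicate 3, while mml-mir-9-2 was highest in replicate 1. That order depended in part on the scaling. TMM, which centres each library on its typical gene, gave the 3 libraries factors of 0.867, 0.917 and 1.26. It was computed over all genes, and most genes with a count were named genes outside the small RNA classes (14307, against 351 microRNA genes). After TMM mml-mir-30d was lowest in replicate 3 and mml-mir-30c-1 differed little (29350, 28247 and 27635). The mml-mir-125a gene was still lowest in replicate 1 after TMM (26703, 30010 and 28710), but highest in replicate 2. The mml-mir-9-2 gene remained highest in replicate 1 after TMM, at 168224 against 90209 and 65544.

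The mml-mir-103-2 gene, of a family known for control of lipid and insulin signalling, measured 18127, 19469 and 21367 RPM (19654 ± 1628). It was followed by mml-mir-181a-2, known from lymphocyte development and also enriched in brain, with 9942, 14895 and 18185 RPM (14341 ± 4150). The level of mml-mir-342 was 10112, 7000 and 9932 RPM (9015 ± 1747). Within each library mml-mir-103-2 was above both others, while mml-mir-342 was above mml-mir-181a-2 in replicate 1 and below it in replicates 2 and 3. The most abundant let-7 gene, MIRLET7A3, a member of the family that promotes differentiation, had 7040, 7467 and 6499 RPM (7002 ± 485), a coefficient of variation (SD over mean) of 6.93% in RPM but of 24.0% after TMM scaling.

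From there the levels fell in smaller steps. Next were mml-mir-301a (mean 3773 ± 713 RPM), mml-mir-181a-1 (3689 ± 364), mml-mir-320a (3339 ± 1108), mml-mir-30a (2989 ± 434), MIR23B (2647 ± 318) and MIR484 (2528 ± 390), whose ranges mostly overlapped. The mml-mir-30e and mml-mir-107 genes had means of 1365 ± 128 and 1164 ± 78.0 RPM. The last 9 of the 25 were mml-mir-425, MIR101-2, mml-mir-339, mml-mir-361, MIRLET7C, mml-mir-9-3, mml-mir-92a-1, mml-mir-30c-2 and mml-mir-127, with means from 982 down to 757 RPM. Of the 25, 15 had their lowest RPM in replicate 1 and 6 their highest there, but after TMM 3 were lowest and 12 highest in replicate 1, and 20 were lowest in replicate 3.

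**Figure D1:**
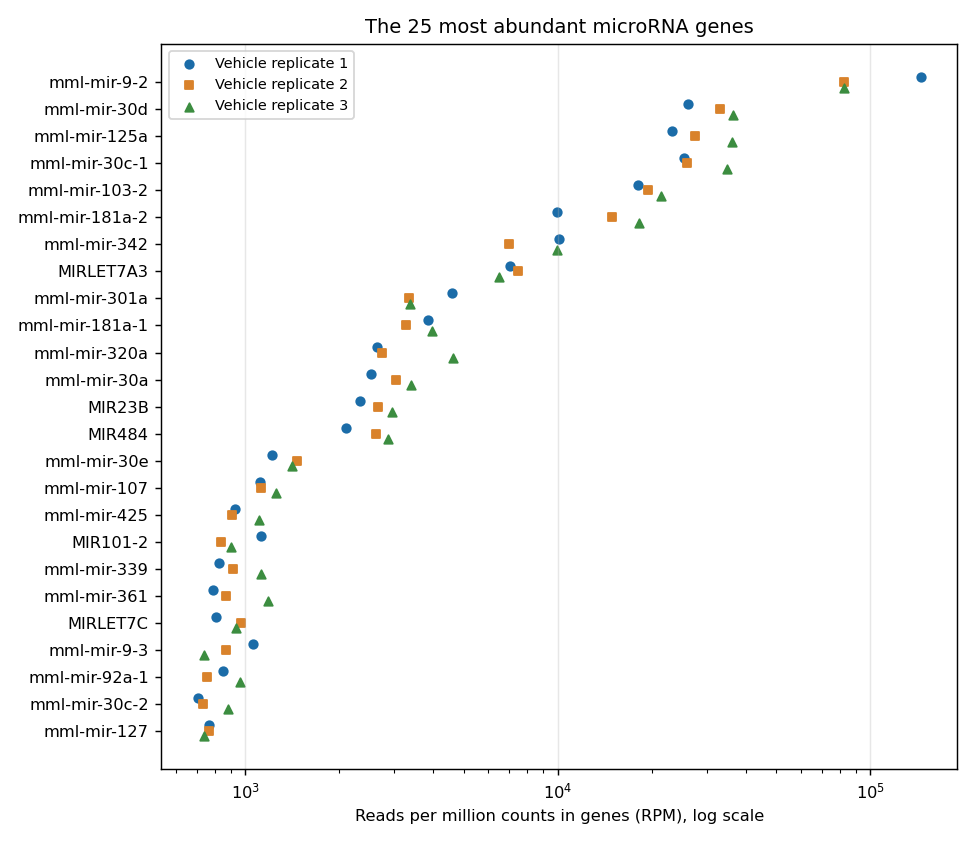
RPM (log axis) of the 25 microRNA genes with the highest mean, 1 point per vehicle library. The mml-mir-9-2 gene, at 145821 RPM in replicate 1 against 82699 and 82480 RPM, stands apart, and 15 of the 25 genes have their lowest RPM in replicate 1, against 3 after TMM scaling.

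Summed by family, miR-30 came second to miR-9. The 6 counted miR-30 genes summed to 56011, 64162 and 76888 RPM (65687 ± 10522, n = 3), or 22.9% of the microRNA counts. The 2 miR-9 genes with a symbol summed to 104556 RPM, of which mml-mir-9-2 gave 99.1%. The miR-125 family (29277 ± 6649 RPM) and the miR-181 family (18385 ± 4197 RPM) followed, with miR-103 between them. The 10 let-7 genes summed to 8539 ± 585 RPM, and MIRLET7A3 gave 82.0% of that. In each of these families except miR-30 a single gene held at least 78.0% of the sum.

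Copies with the same name differed widely or hardly at all. For 20 names with at least 2 counted copies, the highest copy was at least 3-fold above the lowest for 12 and at least 10-fold for 7, while the copies of 6 names lay within 1.5-fold. The mml-mir-9-2 gene was 117-fold above mml-mir-9-3 (137, 95.3 and 112-fold in replicates 1, 2 and 3). Only genes with a symbol were compared. ENSMMUG00000064551 and ENSMMUG00000027037, 2 genes without a symbol, had nearly the counts of mml-mir-9-2, and whether they are mir-9 copies is not known here. MIRLET7A3 was 104-fold above MIRLET7A1, at 67.6 RPM, and mml-mir-30c-1 was 37.2-fold above mml-mir-30c-2. By contrast, the 3 copies of miR-124, a neuronal microRNA, were level: MIR124-3, mml-mir-124a-2 and mml-mir-124a-1 had means of 504, 504 and 491 RPM. The means of the 2 copies of mir-125b and of mir-29b were each 1.10-fold apart, with up to 1.46-fold in replicate 1 for mir-125b and 1.32-fold in replicate 3 for mir-29b. How the counting placed a read that matches several copies is not stated in the labels or files, so the split between copies is uncertain. The sum over copies is uncertain as well, because a read counted under several copies would enter it more than once. The 2 mir-105 genes, for example, had near-identical counts of 171, 360 and 273 and of 171, 358 and 273. The same limit holds for the family sums.

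**Figure D2:**
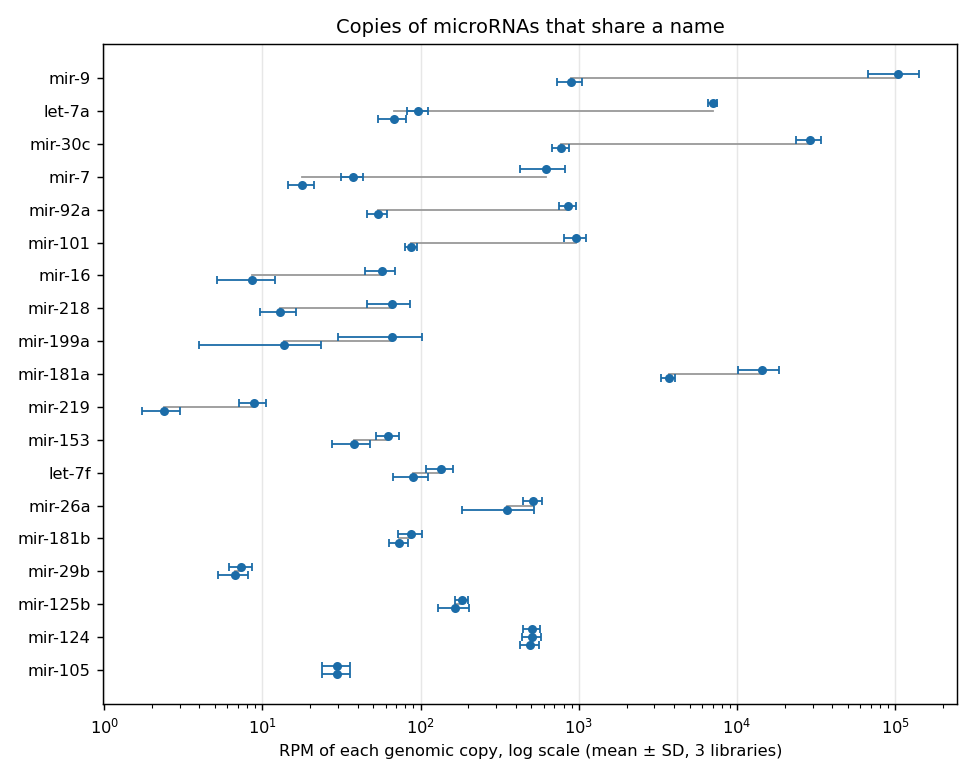
RPM (log axis, mean ± SD, n = 3) of each genomic copy, for microRNA names with at least 2 counted copies, joined by a line per name; mir-135a, whose lower copy is nearly at 0, is left out. Genes without a symbol are not shown. The named copies of mir-9 lie 117-fold apart and those of mir-124 lie within 1.03-fold.

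Genes that sit close together also differed. MicroRNA hairpins in a cluster are often cut from 1 transcript, and positions in RefSeq's rhesus annotation were used to find microRNA genes within 10 kilobases of each other. In 15 sets with a member of at least 100 RPM and a next member of at least 10 counts on average, the top member was at least 10-fold above the next in 10 sets and less than 3-fold above in 3. The widest gap lay between mml-mir-30d and mml-mir-30b, at 28.2 RPM, which were 1210, 945 and 1297-fold apart in the 3 libraries. The mml-mir-125a gene was 146-fold above its neighbour MIR99B (198 RPM), and MIR23B was 53.2-fold above MIR27B (49.7 RPM). At the other end, mml-mir-425 and MIR191 were 2.44-fold apart, mml-mir-181c and mml-mir-181d 1.39-fold, and mml-mir-660 and mml-mir-500a 1.10-fold, a pair whose order turned between libraries. The sets, and the genes named from them, were chosen after the values were seen.

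Some counts appeared under more than 1 gene. Among 725 genes with at least 100 counts in each library, 86 fell into 33 sets whose members had counts within 1% of each other in every library. Of these sets, 12 held snoRNA genes only and 9 held a microRNA gene. The mml-mir-9-2 gene had such a partner without a symbol, ENSMMUG00000064551, with 1082225, 879120 and 693640 counts. A second gene without a symbol, ENSMMUG00000027037, held 97.2%, 95.3% and 95.6% of the mml-mir-9-2 counts. The same held for mml-mir-103-2 and ENSMMUG00000026941. Counting each set once took away 17.8% of the mean counts, and then microRNA genes held 39.0%, 31.0% and 35.1% (35.0% ± 3.97, n = 3). ENSMMUG00000027037 is outside the 1% tolerance and stays among the genes with no symbol there.

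Named genes that span a microRNA had counts from far below to level with those of the microRNA. RefSeq placed microRNA genes inside 210 named genes, and 32 of these held microRNA counts of at least 100 RPM. In 29 of the 32, the named gene had under 10% of the counts of its microRNAs. NFYC, a transcription factor subunit that spans mml-mir-30c-1 and mml-mir-30e, had 5, 12 and 14 counts beside 197874, 290829 and 304307 for the pair. The hosts named here were picked after the values were seen. PANK2, an enzyme of coenzyme A synthesis, had 6, 21 and 23 counts around mml-mir-103-2. EVL, an actin regulator, had 31, 12 and 28 around mml-mir-342. HUWE1, a ubiquitin ligase around mml-let-7f-2 and mml-mir-98, had 18.7%. In 2 of the 32 the counts were nearly equal. WWP2, a ubiquitin ligase, had 4161, 7524 and 6982 counts against 4153, 7518 and 6964 for mml-mir-140. RTL1, an imprinted gene of retrotransposon origin, had 7729, 10366 and 8369 counts, against a sum of 7728, 10364 and 8362 for the 5 microRNAs inside it. Those 5 (mml-mir-127, mml-mir-136, mml-mir-431, mml-mir-432 and mml-mir-433) are known as transcripts of the strand opposite to RTL1. The RTL1 and WWP2 values therefore cannot be told apart from the microRNA reads, and the same holds for VMP1, with 6969, 5770 and 4050 counts beside 6960, 5744 and 4037 for mml-mir-21.

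**Figure D3:**
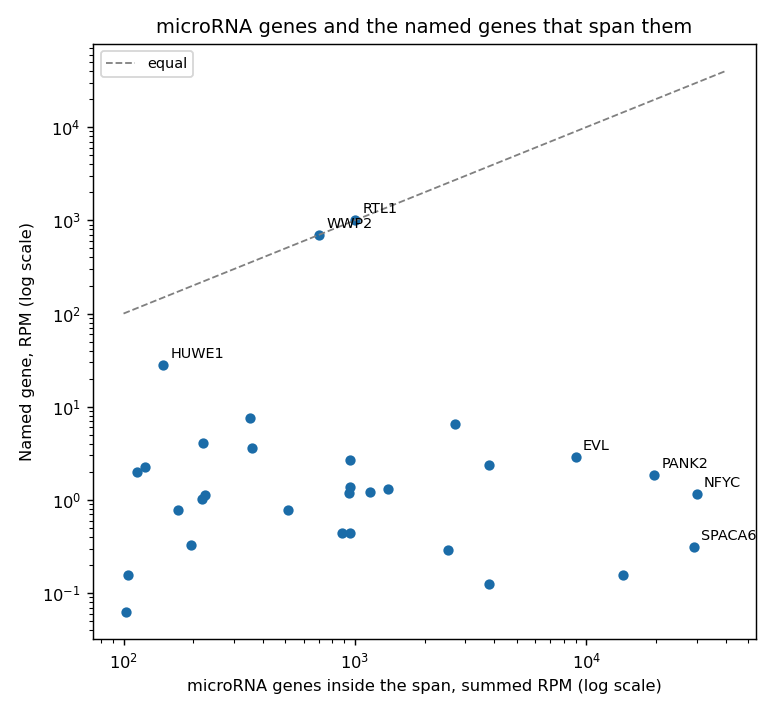
Mean RPM of named genes (vertical, log axis) against the summed mean RPM of the microRNA genes inside their RefSeq span (horizontal, log axis), for spans with at least 100 RPM of microRNA and a counted named gene; the dashed line marks equal values. RTL1 and WWP2 lie on the line, and NFYC, PANK2 and EVL lie far below it.

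Among snoRNAs SNORD115 held the largest share as counted, while SNORD116 and the other C/D box genes overlapped in range. The 72 SNORD115 genes held 4.60%, 5.57% and 5.79% of all counts (5.32% ± 0.633, n = 3), and the 35 SNORD116 genes held 2.31%, 3.53% and 3.76% (3.20% ± 0.777). The 322 other C/D box genes held 2.61%, 2.71% and 3.50% (2.94% ± 0.486). The 157 H/ACA box genes held 0.105% ± 0.0283, and the 12 Cajal body genes 0.00918%. As shares of counts both arrays were lowest in replicate 1, whereas after TMM SNORD115 was lowest in replicate 3 and SNORD116 in replicate 1. Reads were spread over more genes than for microRNA, with 21 snoRNA genes holding 50% of the snoRNA counts and 91 holding 90%, and 319 of 598 had at least 10 counts in each library.

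As counted, the arrays had different profiles. Of the SNORD115 genes, 68 had at least 10 counts in each library, the median gene had 684 RPM, and the top 5 held 29.5% of the array. Of the SNORD116 genes, 24 had at least 10 counts in each library, the median gene had 2.70 RPM, and the top 5 held 82.5%. Those 5 measured 5094 to 5328 RPM each, and the next in rank were 4 SNORD115 genes at 3517 to 3573 RPM. Of the 5 SNORD116 genes, 4 form 1 set of near-identical counts, with 27985 to 27991 counts in replicate 1. The 82.5% may therefore hold the same reads more than once. Repeats of near-identical counts lie within both arrays, and with each set counted once SNORD115 held 3.01% ± 0.229 and SNORD116 1.94% ± 0.395 of the counts. The other C/D box genes then held 3.50% ± 0.541, above either array, so which snoRNA class leads depends on how repeats are counted. The most abundant snoRNA outside the arrays was SNORD29, a C/D box RNA, with 2631, 3907 and 3799 RPM (3446 ± 708). SNORD52, eleventh in rank and named after its values were seen, followed with 1586, 1380 and 2083 RPM (1683 ± 362).

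The other small RNA classes were uneven. The 5.8S ribosomal RNA held 2.16%, 3.14% and 3.35% (2.89% ± 0.634), nearly all of it in 2 genes of 20983 ± 4661 and 7872 ± 1786 RPM. Y RNAs, partners of the Ro protein, held 2.74%, 2.11% and 3.17% (2.68% ± 0.532) over 371 genes, led by 1 gene at 5518 ± 1359 RPM. The RNA of the signal recognition particle, which directs nascent secretory proteins to the endoplasmic reticulum, held from 2.37% in replicate 1 to 2.95% in replicate 3 (2.64% ± 0.290) over 3385 genes, the highest at 7500 ± 1929 RPM. These 3 classes overlapped in range, so no order among them holds beyond the spread.

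Spliceosomal RNAs held 0.444%, 0.969% and 0.742% (0.718% ± 0.263), led by a U2 gene with 835, 1835 and 1296 RPM and a U4 gene with 652, 728 and 912 RPM. RNase P RNA, which trims transfer RNA precursors, came to 0.0419%, vault RNA to 0.0286%, RNase MRP RNA to 0.0181% and U7, the guide of histone messenger processing, to 0.00196%. The 5S ribosomal RNA genes held 0.00212%, 0.0186% and 0.0039%, and replicate 2 stood above the others. Its top gene had 5, 550 and 65 counts. The leading named genes outside these classes were TIA1, an RNA-binding protein gene with 3162, 1740 and 3385 RPM, ZNF212 with a mean of 1324 RPM, and GSTA4, a glutathione transferase gene, with a mean of 1181 RPM. Whether these reads come from the messenger RNA or from a small RNA inside the gene was not tested.

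Genes without a symbol took 14 of the 25 places at the top of the whole table, against 8 for microRNA genes, and 32 of them had a mean of at least 1000 RPM. After the 2 genes that follow mml-mir-9-2 in count, the most abundant was ENSMMUG00000054358, with 23817, 62576 and 31995 RPM. ENSMMUG00000052127 measured 8043, 29933 and 12413 RPM and ENSMMUG00000062077 measured 3747, 22284 and 5348 RPM. These 3, the latter pair chosen after its values were seen, were all highest in replicate 2, the library with the lowest microRNA share.

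The spread between libraries was a median coefficient of variation (CV, SD over mean RPM) of 21.5% over 215 microRNA genes with a mean count of at least 10, with quartiles of 14.6% and 34.9%. Counting alone, with counts taken as independent, would give a median of 5.64% for those genes. Over 339 snoRNA genes the median CV was 24.5%, with quartiles of 17.6% and 37.2%, against 4.78% from counting. The spread thus exceeded counting noise about as clearly in both classes. TMM scaling gave medians of 23.7% for microRNA and 21.3% for snoRNA, so the order of the classes turned with the scaling. A CV over 50% was found for 20 microRNA and 36 snoRNA genes. The common dispersion fitted by edgeR, as a biological coefficient of variation, was 31.7% for microRNA and 36.9% for snoRNA genes. Other small RNA classes had a median CV of 36.1% over 358 genes, with 15.4% from counting.

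Among microRNA genes of at least 100 RPM, mml-mir-190a varied most, with 240, 82.6 and 48.0 RPM (CV 82.9%). The mml-mir-26a-2 gene, with 252, 550 and 256 RPM (CV 48.4%), was highest in replicate 2. The mml-mir-21 gene, known to rise with glial and immune activation, had 938, 540 and 480 RPM (CV 38.1%), and mml-mir-9-2, mml-mir-320a and mml-mir-7-3 had CVs of 35.2%, 33.2% and 31.9%. After TMM these were 49.6%, 11.5% and 46.9%. Of these 6, mml-mir-190a, mml-mir-21, mml-mir-9-2 and mml-mir-7-3 were highest in replicate 1 on both scales, and the cause was not tested. The steadiest in RPM was mml-mir-127, of the imprinted DLK1-DIO3 region, with 768, 764 and 739 RPM (CV 2.10%), but after TMM its CV was 20.8%. The mml-mir-148b, mml-mir-660, MIR191, mml-mir-34a and mml-mir-107 genes had CVs from 3.69% to 6.70% in RPM and from 13.1% to 22.6% after TMM, so a low spread here holds for RPM only. Across genes the ranks were alike: Spearman's rho over 199 microRNA genes was 0.976, 0.973 and 0.983 for the 3 pairs of libraries and 0.959, 0.951 and 0.978 over 319 snoRNA genes, as a description, since genes are not independent replicates.

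Lists of microRNAs known from particular cell types were used to check the tissue label. The 17 neuronal genes summed to 149915, 86560 and 86106 RPM, and 16 of the 17 had at least 10 counts in each library. Nearly all of that was mml-mir-9-2: the other 16 genes summed to 4094, 3861 and 3626 RPM (3860 ± 234), below the microglia and leukocyte list and the let-7 list. The neuronal list has no gene for mir-138 or mir-132. The defining neuronal genes of miR-124 and miR-128 were present, with MIR128-1 at 202 ± 29.1 and mml-mir-128b at 221 ± 27.8 RPM, and mml-mir-137 was at 0.516 RPM. The 3 oligodendrocyte genes summed to 111 ± 14.1 RPM, at most 122 RPM in replicate 2, and were led by mml-mir-338 at 99.9 RPM. The 4 miR-29 genes, enriched in astrocytes, summed to 116, 157 and 188 RPM (153 ± 36.2). Neuronal and glial lists were thus present in each library.

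Lists of immune, vascular and blood cells were counted as well. The 7 genes of microglia and leukocytes summed to 11273, 7783 and 10634 RPM (9896 ± 1858), but mml-mir-342, which is not restricted to immune cells, gave 9015 RPM of it. The other 6 genes summed to 1161, 783 and 701 RPM (882 ± 245), above the oligodendrocyte and miR-29 sums in each library, with mml-mir-21 the largest. This list has no gene for mir-150. The more restricted mml-mir-223, of myeloid cells, and MIR142, of blood cells, had means of 15.7 and 6.30 RPM, and mml-mir-155 had 3.39 RPM. The endothelial mml-mir-126 had 129, 76.5 and 109 RPM, and the mural pair mml-mir-145 and mml-mir-143 summed to 119, 59.4 and 94.7 RPM. Both vascular lists were lowest in replicate 2. The 3 red cell genes summed to 65.6, 90.7 and 108 RPM, of which MIR486-1 gave most, with mml-mir-451 at 8.09 RPM and mml-mir-144 at 0.0898 RPM. Red cell genes were lowest in replicate 1, so the vascular and red cell lists did not order the libraries alike. The choroid plexus microRNA mml-mir-204 had 16.0, 46.4 and 47.4 RPM, also lowest in replicate 1. The other gene of that list, mml-mir-211, was not lowest there, but its 6, 6 and 1 counts are too few to order the libraries. In bulk tissue, fewer cells of a type and less RNA per cell cannot be told apart, and the part of cell mixture in the spread was not tested.

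Of the lists for tissues outside the brain, liver, placenta, epithelium and islet were at or near 0 and striated muscle was not. Liver mml-mir-122a had 2, 4 and 2 counts. Of 27 genes of the placental chromosome 19 cluster, 24 were at 0 in all 3 libraries and the sum was 0.269, 0.564 and 0 RPM. The 5 epithelial genes summed to 2.23 RPM on average, and MIR375, of islet and pituitary, had 2.28 RPM. The striated muscle list summed to 151, 187 and 161 RPM (166 ± 18.8), close to the miR-29 sum, and differed within itself: mml-mir-133a and mml-mir-133c had 82.9 RPM each, with near-identical counts, while 5 of the 8 genes, both mir-1 genes among them, were at 0 in all 3 libraries. The tables hold a gene for 17 of the 35 listed microRNA numbers of the imprinted DLK1-DIO3 cluster, so its sum is partial. Its 18 genes summed to 1357, 1267 and 1352 RPM (1325 ± 50.6), and the 12 of the mir-17-92 clusters, known as promoters of proliferation, to 1277, 1043 and 1264 RPM (1195 ± 132).

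**Figure D4:**
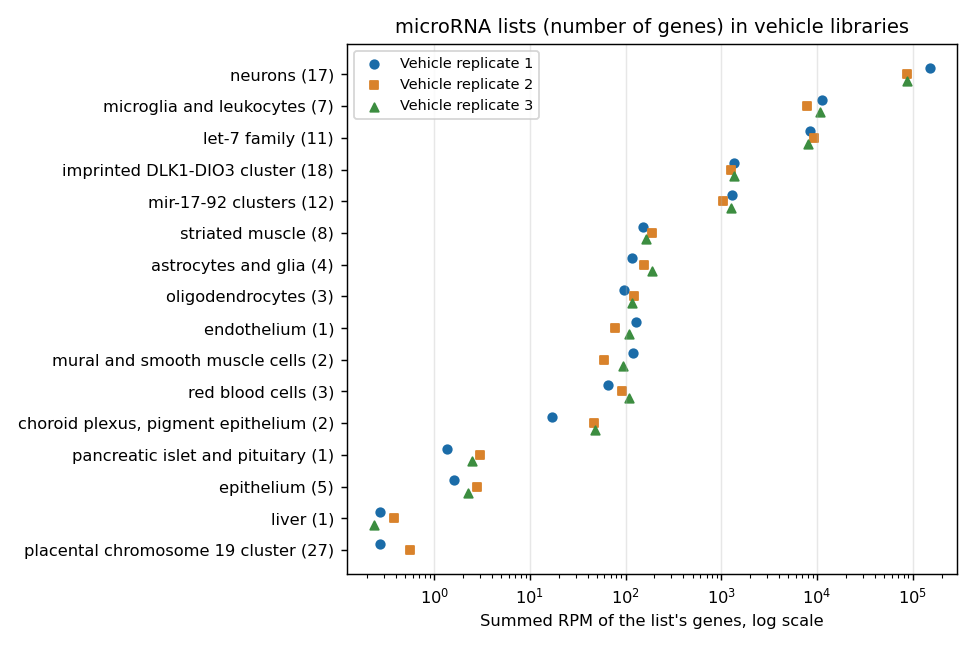
Summed RPM (log axis) of each microRNA list, with the number of genes in parentheses and 1 point per vehicle library; the placental list was at 0 in replicate 3 and has no point there. Neuronal genes lead at 86106 to 149915 RPM through mml-mir-9-2 (3626 to 4094 RPM without it), and the liver and placental lists lie below 1 RPM.

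Reads in genes known from cerebellar cell types were also counted, in a list chosen after the values were seen. Whether they are fragments of messenger RNA or come from a small RNA inside the gene was not tested. CDR1, whose locus gives an abundant circular RNA in neurons, had 668, 511 and 931 RPM, and SNRPN, whose transcription unit carries the SNORD116 array, had 393, 431 and 508 RPM. The Purkinje cell gene ITPR1 had 19.7, 45.2 and 69.0 RPM and the granule cell gene GABRA6 6.47, 10.1 and 13.6 RPM. GFAP, of astrocytes, had 23.2, 19.8 and 18.8 RPM and MBP, of myelin, 10.5, 18.9 and 28.7 RPM. The granule cell gene FAT2 ran from 43.3 RPM in replicate 2 to 103 RPM in replicate 3. GABRA6 and NEUROD1 (4.04, 7.24 and 10.9 RPM), also of granule cells, were instead lowest in replicate 1. Of the Purkinje cell genes, ITPR1, CALB1 (3.50, 4.14 and 13.0 RPM) and PPP1R17 (0, 10 and 15 counts) were lowest in replicate 1. The Purkinje cell gene PCP2 had only 6, 4 and 8 counts, too few to order the libraries.

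Libraries of other kinds gave other class shares, set side by side without a test. In the 4 vehicle total RNA libraries of deep cerebellar nuclei, which held 87741 to 3439609 counts in the reverse-strand column used, microRNA genes held 0.172% to 0.224% of counts, snoRNA genes 0.0233% to 0.0331% and other named genes 92.6% to 93.6%, and mml-mir-9-2 was at 0 in all 4. Nearly all of those microRNA counts fell in 1 gene, mml-mir-663-1: 4098 of 4476, 141 of 151, 7097 of 7509 and 6205 of 6673. The same gene had a mean of 3.70 RPM in the vehicle small RNA libraries. The 3 empty capsid small RNA libraries of Study 2 held 451, 277509 and 347 counts in the sense-strand column used. Replicates 1 and 3 of these had 27819386 and 26905538 unmapped reads and 0 microRNA counts, which allows a share of up to 0.665% and 0.865%. SnoRNA genes held 88.2% and 89.6% of the 451 and 347 counts in replicates 1 and 3. Replicate 2 had a microRNA share of 0.116%, with 73.7% in other named genes and 0.0213% in snoRNA genes, and its reverse-strand column held 1648126 counts. Empty capsid replicates 1 and 3 held fewer counts in the reverse-strand column, 100 and 75, than in the sense-strand column. Replicate 2 thus had most of its counts in the column that was not used. Its share of 0.116% lay below the 26.0% to 30.9% of the Study 1 vehicle libraries, but cannot be taken as a sound measure of its microRNA content. The cause was not tested. The columns, studies and library kinds differ, so these shares are values side by side only.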

How the data were processed

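The authors deposited read counts per Ensembl macaque gene for each library. Per the submitters' processing notes the tools were STAR 2.6.0c and DESeq2. For the Study 1 small RNA tables no counting program, genome build or annotation is stated in the labels or files. Per the labels' protocols, a miRNeasy kit was used for small RNA and a TruSeq kit for its libraries. The tables hold 34847 gene identifiers, 24009 of them with a symbol, and 5 vector features, which stayed out of the totals. Each vehicle small RNA table has 1 column of counts, which was used. For the other libraries shown beside them, the reverse-strand column was used for deep cerebellar nuclei and the sense-strand column for empty capsid small RNA.

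Genes were put into classes by symbol: mml-mir, mml-let, MIR with a digit or MIRLET for microRNA, which also took 2 host gene symbols with at most 26 counts. U3 and U8 went with the C/D box snoRNAs. Counts were scaled to RPM, and means, SDs and CVs were taken over 3 libraries. No test was made, since 1 group has no contrast. R 4.3.3 with edgeR 4.0.16 (TMM, common dispersion) and DESeq2 1.42.0 (size factors) gave other scalings. The common dispersion was checked on simulated data in which genes varied independently. Python 3.11.15 with pandas 2.3.3, scipy 1.17.1 and matplotlib 3.10.9 did the rest. RefSeq's rhesus table, of another annotation, matched 472 of 534 microRNA symbols and was used for lengths, spans and neighbours. No file held microRNA sequences, so none is shown.

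The members and lists were chosen with earlier results of these data known. Named genes are the 25 microRNA, 10 snoRNA and 3 genes of each other class with the highest mean RPM, the 6 microRNA genes with the highest and the 6 with the lowest CV at 100 RPM or more, the counted list members, and copies of the leading families. Host genes, neighbours, genes with near-identical counts, genes of cerebellar cell types, SNORD52 and some genes without a symbol fall outside this rule and were named after their values were seen. The alternatives tried were another denominator, other scalings, other count minimums, copies summed, and leaving out each library or the leading gene.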

Additional observations from a re-analysis of the deposited data

Results flagged for a closer look

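Counts on vector features appeared in vehicle libraries, which by their label received no vector. The vector genome feature had 8 counts in replicate 1 (Poisson 95% interval 3.45 to 15.8), 2 in replicate 2 (0.242 to 7.22) and 16 in replicate 3 (9.15 to 26.0). The intervals cover counting error only and take each count as independent, which was not tested. All of these vector counts were even numbers, as were many low microRNA counts, such as 22, 22 and 22 for mml-mir-940. If 1 fragment could add 2 counts, the intervals would be too narrow. Replicates 1 and 3 exceeded the 3 counts that a count of 0 allows. The miS1 feature, the artificial microRNA of the vector, had 8 counts in replicate 1, 0 in replicate 2 and 10 in replicate 3. The stuffer feature was at 0 in all 3 libraries. At 1.08 and 1.19 RPM in replicates 1 and 3, the miS1 level was above that of mml-mir-122a and below that of MIR142. The source of these counts was not tested.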

How the results depend on the processing

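The class shares moved with what was counted. With named small RNA alone as the denominator, microRNA genes held 58.3%, snoRNA genes 23.4% and other small RNA classes 18.3%, and this gives no value for genes with no symbol. Without the most abundant gene of the table, microRNA genes held 32.2% and genes with no symbol 40.6%. In an alternative chosen after seeing the data, near-identical counts were counted once, and microRNA genes then held 35.0%, snoRNA genes 8.59%, other classes 10.9% and genes with no symbol 41.0%. Without mml-mir-9-2, also chosen after seeing the data, microRNA genes held 20.5%, genes with no symbol 52.3%, and 20 genes held 90% of the microRNA counts. Leaving out each library in turn gave 27.7% to 30.1% for microRNA, 10.8% to 12.6% for snoRNA, 8.37% to 9.62% for other classes and 45.4% to 49.0% for genes with no symbol.

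With at least 100 counts in each library, 212 snoRNA genes were counted. The median CV of microRNA genes was 24.0% with DESeq2's size factors and 35.8% over all genes with at least 1 count, and 16.5% to 21.0% with 1 library left out. The median CV of snoRNA genes was 19.8% when scaled within the class, 30.2% at a minimum of 1 count, and 17.1% to 25.3% with 1 library left out. Without 1 library, mml-mir-9-2 held 29.9% to 39.5% of the microRNA counts, 200 to 209 microRNA and 321 to 336 snoRNA genes were counted, and 13 or 14 genes held 90%. The mean RPM of 43 of 43 named genes moved by less than 1 SD under TMM and under scaling within the class. TMM factors multiply to 1, so a mean over 3 libraries can move little, and this does not check the spread or the order of the libraries. After TMM the order of the libraries changed: 3 of the 25 leading microRNA genes were lowest in replicate 1, against 15 in RPM.

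No paired analysis was possible because the values come from 1 group and from no test. Classes taken from the reference table were not run, because 0 of its identifiers matched those of the count tables. Spread over 3 libraries, and not depth, limits the precision of the microRNA levels above 100 RPM.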
